A study of Homo sapiens with 4 samples.

Results

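The copies of 7SL RNA were followed in a small RNA sequencing comparison of 2 forms of RPB1, the catalytic subunit of RNA polymerase II whose C-terminal domain is made of heptad repeats. Members were chosen by name and by counts: a feature counted as a member if its symbol began with RN7SL and its raw counts, summed over all 4 libraries, reached at least 10. This selected 113 of the 7062 listed features, namely the genes RN7SL1, RN7SL2 and RN7SL3 and 110 pseudogenes. A further 557 listed 7SL copies stayed below the minimum, 301 of them at 0 in every library and 256 with totals of 1 to 9. The 7 members at a total of exactly 10 included RN7SL177P, RN7SL237P and RN7SL403P, and the 5 copies just outside at 9 included RN7SL153P, RN7SL178P and RN7SL184P. Because total counts chose the members, their totals are given as a description only.

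7SL RNA is the scaffold of the signal recognition particle, a complex of RNA and proteins that binds signal peptides as they leave the ribosome and brings the ribosome to the endoplasmic reticulum. It is made by RNA polymerase III rather than by RNA polymerase II. The human genome carries a small number of 7SL genes and a large family of pseudogenes, which arose as copies of the RNA inserted back into the genome, and the Alu repeats descend from the same RNA.

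All 4 libraries came from HEK293T, an established line derived from human embryonic kidney. The cells were transiently transfected with 1.5 µg of plasmid per well and then kept in α-amanitin at 2.5 µg/ml for 72 h, a toxin that blocks the cell's own RNA polymerase II and removes cells without the plasmid. The plasmid for 52X WT encoded RPB1 with 52 repeats of the wild-type kind, and the one for 52X T4A encoded RPB1 in which the fourth residue of the repeats was changed from threonine to alanine. Both groups therefore shared the cell line, the transfection and the toxin, no untreated cells were part of the comparison, and each group had 2 libraries, given as biological replicates. The transfected cells were pools and not clones.

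The libraries held 16180790 to 27370127 counts assigned to features. A list of 9 miRNAs typical of HEK293T cells was found whole. It took 207839 to 229598 CPM (counts scaled to library size) in 52X T4A and 237551 to 263999 CPM in 52X WT. The groups did not overlap for this list, and its part in the values below was not tested. Lists for neurons, liver and blood summed to at most 12.1 CPM. A list of 5 muscle miRNAs summed to 81.6 to 96.5 CPM in 52X T4A and to 30.5 to 33.1 CPM in 52X WT, with none of the 5 at 0, and its part in the values below was not tested. The library 52X WT replicate 1 was the lowest for 32 of the 48 tested 7SL pseudogenes and the highest for 5. Over the 1480 features tested it was the lowest for 439 and the highest for 554, so it often stood apart outside this family too. Results are given with and without this library. In these bulk samples, fewer cells of a type and less RNA per cell cannot be told apart.

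A read covered at most 50 bases of copies whose median length was 297 bp (242 to 342 bp), so a count stands for a short piece of a 7SL copy and not for a whole RNA. How reads matching several copies were counted is not given in the sources used here. Counts of near-identical copies are therefore uncertain for each copy alone and are not independent of one another.

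The sequences below come from the transcripts of GENCODE v44lift37, matched by gene identifier or symbol for 112 of the 113 members and for 666 of the 670 listed 7SL copies. RN7SL1 had no match and is named only. RN7SL2 lies on chr14:49862550-49862849 (hg38, minus strand) and RN7SL3 on chr14:49853616-49853914 (minus strand). Every pseudogene was compared with RN7SL2, and the stretches shown have in capitals a run of 17 bases, positions 78 to 94 from the 5′ end of RN7SL2, on which the description of the counts turns. The transcripts of RN7SL2 and RN7SL3 were 96.3% identical over 297 aligned bases, and 11 bases differed.

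Totals fell into separate ranges. The 3 genes and 23 pseudogenes had totals of at least 767, the next member, RN7SL521P, had 353, and no total lay between these. The 26 upper members held 94.57% of the 79794 counts of all members, while the median member had 39 counts. The search for sequence shared by the upper members was made after these values had been seen, and the 17-base run is the longest one that all 25 upper members with a sequence have in common with RN7SL2. That every one of the 25 holds it follows from the search. The search did not by itself fix what the other copies hold: none of the remaining 641 listed copies with a sequence, whose median total was 1, carried the run. The run was thus held by 3.75% of the listed copies with a sequence, and these were the copies with totals of 767 to 6318. The same totals chose the members and the run, so this contrast is a description and not a test.

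The plot of counts against the shared run shows every listed copy with a sequence, separated by whether it holds the run.

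**Figure D1:**
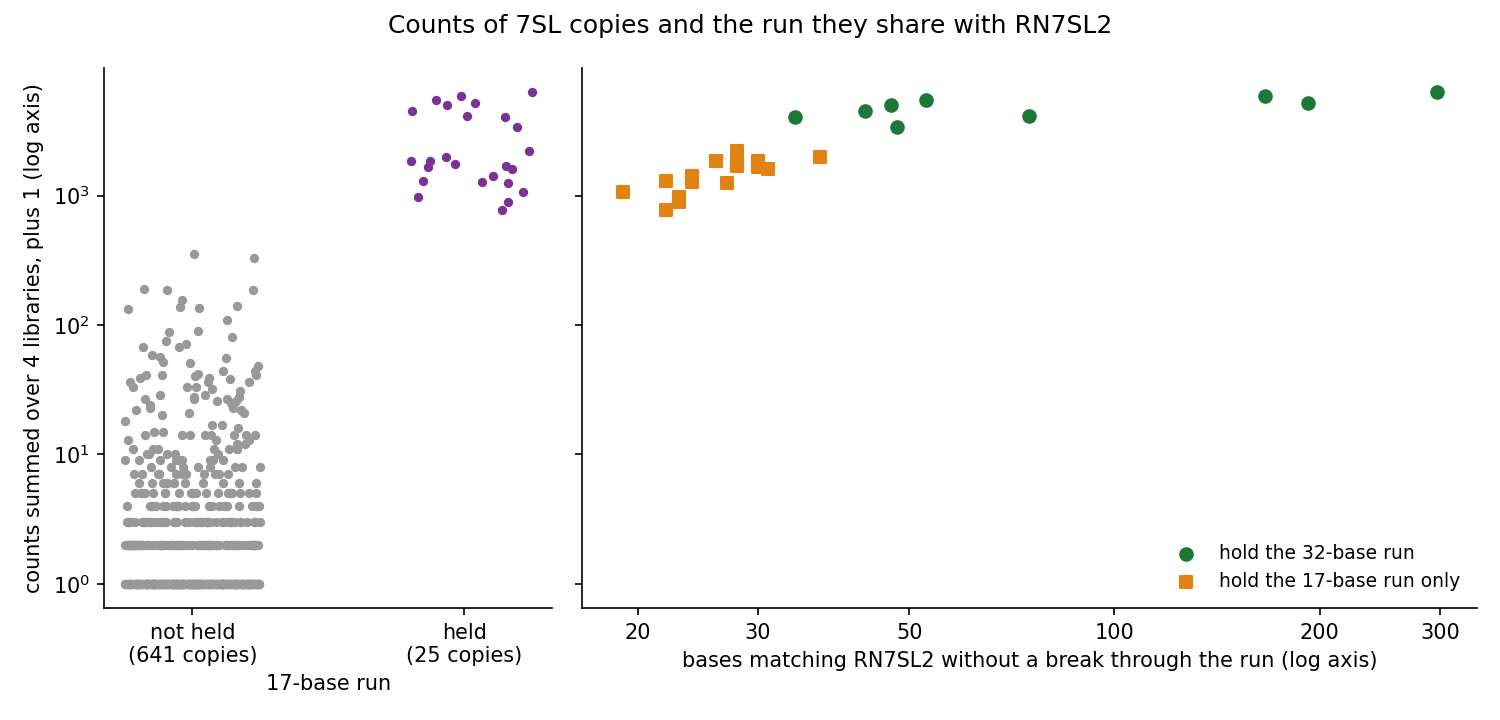
Counts summed over the 4 libraries plus 1 (log axis) for 641 listed 7SL copies without the 17-base run and 25 copies with it (left), and the same totals for the 25 copies against the number of bases that match RN7SL2 without a break through the run (right, log axis). Each point is a copy. No copy without the run exceeds 353 counts and no copy with it falls below 767, and the 9 copies that hold a longer run of 32 bases lie above the other 16. Both runs were chosen by the same totals, so the figure is a description only.

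A longer run of 32 bases (positions 71 to 102 of RN7SL2) was found in the same way, as the longest that all 9 sequenced copies with totals of at least 2500 have in common with RN7SL2, so that these 9 hold it follows from the choice by total. None of the other listed copies with a sequence held it. The 9 copies had totals of 3373 to 6318, and the other 16 copies with the 17-base run had totals of 767 to 2216. The 32 bases read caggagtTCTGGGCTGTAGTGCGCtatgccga, with the 17-base run in capitals. The unbroken match spanned 34 to 297 bases in the 9 copies with the longer run and 19 to 37 bases in the 16 without it. Spearman's rho between match length and total was 0.92 across the 25 copies, given as a description over copies that share libraries and sequence, and fixed in part by the choice of the runs by total. Identity over the whole of RN7SL2 did not separate the copies in this way: its median was 83.2% in holders of the 17-base run and 82.5% in members without it, and its rho with the total among the 25 was 0.44.

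The stretches around the run are shown for 8 of the copies, in order of their totals, with 12 bases on either side. The match did not shrink at every step. It spanned 28 bases in RN7SL97P and 30 in RN7SL49P, and 19 in RN7SL100P and 22 in RN7SL116P. The first 3 hold the 32-base run.
RN7SL2: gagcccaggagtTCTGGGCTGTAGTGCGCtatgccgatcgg
RN7SL674P: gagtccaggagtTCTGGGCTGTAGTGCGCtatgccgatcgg
RN7SL546P: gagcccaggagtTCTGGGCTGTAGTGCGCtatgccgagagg
RN7SL97P: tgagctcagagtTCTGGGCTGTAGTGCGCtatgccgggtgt
RN7SL49P: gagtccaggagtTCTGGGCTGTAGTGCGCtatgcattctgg
RN7SL397P: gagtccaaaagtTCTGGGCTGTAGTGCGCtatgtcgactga
RN7SL100P: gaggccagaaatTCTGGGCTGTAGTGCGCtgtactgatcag
RN7SL116P: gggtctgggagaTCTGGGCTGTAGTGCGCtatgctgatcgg
RN7SL674P lies on chr2:11584773-11585047 (plus strand) in an intron of GREB1, a gene induced by estrogen, and RN7SL546P on chr14:102582888-102583177 (minus strand). RN7SL97P lies between genes on chr18:25818234-25818532 (minus strand). RN7SL49P lies on chr13:45002150-45002447 (plus strand) in an intron of GPALPP1, and RN7SL397P on chr3:120121909-120122206 (plus strand). RN7SL100P lies between genes on chr9:26895678-26895970 (plus strand), and RN7SL116P on chr20:38872770-38873074 (plus strand) in an intron of PPP1R16B. All are hg38 positions.

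Of the 12 sequenced copies next below the break in totals, 2 differed from RN7SL2 at 1 base of the run, 4 at 2 bases, 1 (RN7SL118P, total 131) at 3 and 1 (RN7SL665P, total 190) at 4, and the other 4 could not be aligned to it without a gap. The aligned bases are shown for 4 of the nearest, here with capitals at the bases that differ.
RN7SL752P: tctAggctgtagtgTgc
RN7SL508P: tctgggcGgAagtgcgc
RN7SL151P: tctgggctgtagtgTgc
RN7SL559P: Cctgggctgtagtgcgc
RN7SL151P and RN7SL559P differed from RN7SL2 at 1 base of the run and had totals of 184 and 136. RN7SL752P and RN7SL508P differed at 2 bases and had totals of 328 and 187. RN7SL521P, with the highest total of a copy without the run, was among those not aligned.

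Windows of 20 bases along RN7SL2 were also compared on the same totals. For each of 278 windows the highest total of a member that lacks the window was taken. In 13 windows, which together spanned bases 71 to 102, no member without the window exceeded 2500 counts. These windows lie within the longer run, which was itself chosen at a total of at least 2500. That they meet this limit therefore follows from the choice and is not a separate result. The lowest value was reached at bases 77 to 96, held by 21 members, where no member without it exceeded 1061. In all other windows, at least 1 member without the window had 3373 counts or more.

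**Figure D2:**
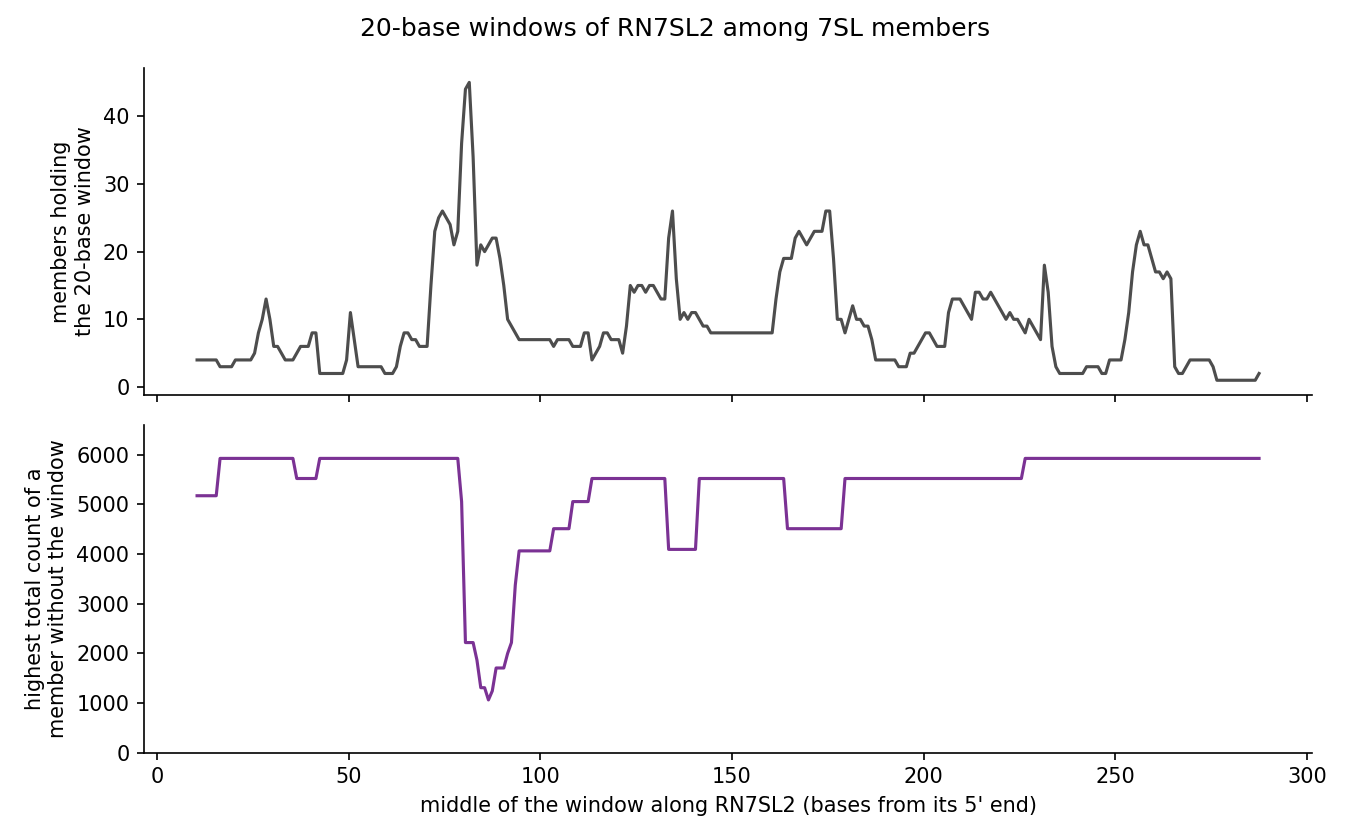
Number of the 112 members with a sequence that hold each 20-base window of RN7SL2 (top) and the highest total count of a member that lacks the window (bottom), by the middle of the window in bases from the 5′ end of RN7SL2. The lower curve dips to 1061 at bases 77 to 96 and stays at 3373 or above in all windows that do not lie within bases 71 to 102. Bases 71 to 102 are the longer run, which was chosen by the same totals, so the place of the dip is not a separate result.

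The 3 genes were then taken in turn. RN7SL1, on chr14:49586580-49586878 (plus strand), had the highest level per length, 333 CPM per kb as the mean of the 4 libraries. Its level was 106 and 87.7 CPM in 52X T4A replicates 1 and 2, and 108 and 95.9 CPM in 52X WT replicates 1 and 2. The groups overlapped, with a log2 fold change of -0.07 ± 0.27 (SE, 2 libraries per group, FDR = 0.964, edgeR's quasi-likelihood test). FDR is the p-value adjusted by Benjamini-Hochberg over all features tested, and fold changes are 52X T4A over 52X WT throughout.

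RN7SL2 had 268 CPM per kb. It was at 84.0 and 70.4 CPM in 52X T4A and at 88.5 and 78.4 CPM in 52X WT, again with overlapping groups and a log2 fold change of -0.11 ± 0.27 (FDR = 0.922). RN7SL3 had 214 CPM per kb, with 70.8 and 56.5 CPM in 52X T4A and 63.1 and 65.4 CPM in 52X WT, and a log2 fold change of -0.01 ± 0.28 (FDR = 0.992). For all 3 genes the difference was smaller than its standard error. Its sign was not stable: under library size alone the values were 0.10, 0.06 and 0.15.

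RN7SL2 kept a near-constant ratio to RN7SL1, at 0.789 and 0.803 of its counts in 52X T4A replicates 1 and 2, against 0.819 and 0.817 in those of 52X WT. RN7SL3 stood at 0.665 and 0.644 of RN7SL1 in 52X T4A, and at 0.584 and 0.682 in 52X WT, with the lowest ratio in 52X WT replicate 1.

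Some of the 7 pseudogenes with the 32-base run exceeded RN7SL3 in mean level, and the others lay below all the genes. Per length, RN7SL674P (253 CPM per kb), RN7SL5P (230) and RN7SL4P (219) lay between RN7SL2 and RN7SL3. RN7SL767P (192), RN7SL296P (170), RN7SL128P (169) and RN7SL546P (145) followed. Of the 9 pairs of neighbours in this order of 10 copies, 7 kept their order in all 4 libraries, while RN7SL4P and RN7SL3, and RN7SL296P and RN7SL128P, changed places in 2 libraries. RN7SL5P, on chr9:9442060-9442380 (plus strand) in an intron of PTPRD on the opposite strand, was at 81.8 and 69.7 CPM in 52X T4A and at 68.3 and 76.2 CPM in 52X WT, and its groups overlapped (log2 fold change 0.07 ± 0.27, FDR = 0.967). RN7SL4P, in an intron of ANKRD28 and also opposite in strand, was at 73.0 and 61.5 CPM against 59.6 and 64.1 CPM (0.12 ± 0.28, FDR = 0.917). Across the 7 pseudogenes the log2 fold changes ran from -0.03 to 0.12 with a median of 0.04, and the smallest FDR was 0.917.

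The 16 pseudogenes that held the 17-base run only were lower in level and differed between the 52X WT libraries. RN7SL97P was at 33.5 and 26.4 CPM in 52X T4A, and at 16.5 CPM in 52X WT replicate 1 against 32.5 CPM in replicate 2. RN7SL43P was at 32.8 and 23.9 CPM in 52X T4A, with 13.4 and 28.1 CPM in 52X WT. RN7SL143P was at 30.2 and 23.6 CPM, with 11.2 and 25.3 CPM. In each of the 3 the library 52X WT replicate 1 was the lowest, and 52X WT replicate 2 lay within the range of the 52X T4A libraries. The same library was the lowest for all 16 pseudogenes, beside 439 of the 1480 features tested, and it was the highest for 554 of those features. Among them RN7SL116P, with the lowest total of the 16, was at 14.5 and 9.63 CPM in 52X T4A and at 2.81 and 10.3 CPM in 52X WT.

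**Figure D3:**
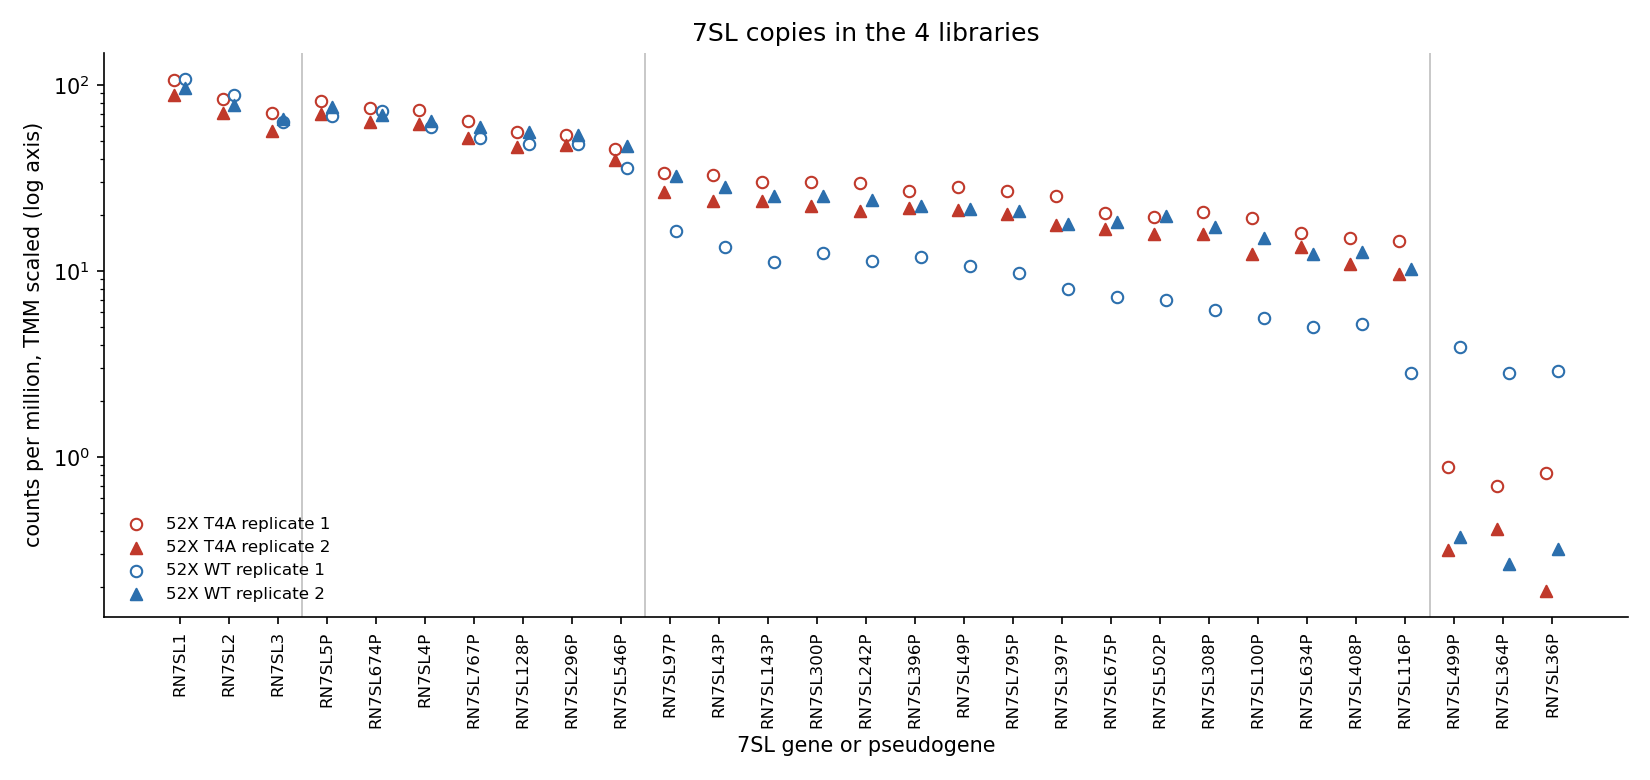
Level of 29 7SL copies in each library, as TMM-scaled CPM on a log axis. Points are libraries, red for 52X T4A and blue for 52X WT, with open circles for replicate 1 and filled triangles for replicate 2, and grey lines part the 3 genes, the 7 pseudogenes with the 32-base run, the 16 with the 17-base run only, and the 3 tested members with the lowest log2 fold changes. The open blue circle lies lowest for all 16 of the third set and highest for all 3 of the last.

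The ratio of 52X WT replicate 1 to replicate 2 summarises this. It ran from 0.274 to 0.529 in the 16 pseudogenes, with a median of 0.444. In the 9 copies with the 32-base run and a sequence it ran from 0.759 to 1.13, with a median of 0.896, so the sets did not overlap. The corresponding ratio of the 52X T4A libraries was 1.18 to 1.56 in the 16 and 1.14 to 1.25 in the 9. Across all tested features the median ratio of the 52X WT libraries was 1.05. Match length and this ratio had a Spearman's rho of 0.90 over the 25 copies, again as a description over copies that share libraries.

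As shares of a library, the 3 genes took 0.02555% and 0.02476% of counts in 52X T4A and 0.0234% and 0.02355% in 52X WT. The widest exact 95% binomial interval, which covers counting error only, ran from 0.02478% to 0.02634%. The 110 pseudogenes took 0.0877% and 0.08339% in 52X T4A, with 0.05221% for replicate 1 of 52X WT and 0.07888% for its replicate 2, with intervals of 0.0511% to 0.05333% and 0.07762% to 0.08014% for the 52X WT libraries. Pseudogene counts were 3.43, 3.37 and 3.35 times those of the genes in every library but 52X WT replicate 1, where they were 2.23 times. Both shares were higher in both 52X T4A libraries, but an exact permutation test of 2 against 2 libraries cannot give a two-sided p below 0.333. For the genes this order belongs to the unscaled shares, since the TMM-scaled log2 fold changes were all below 0.

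**Figure D4:**
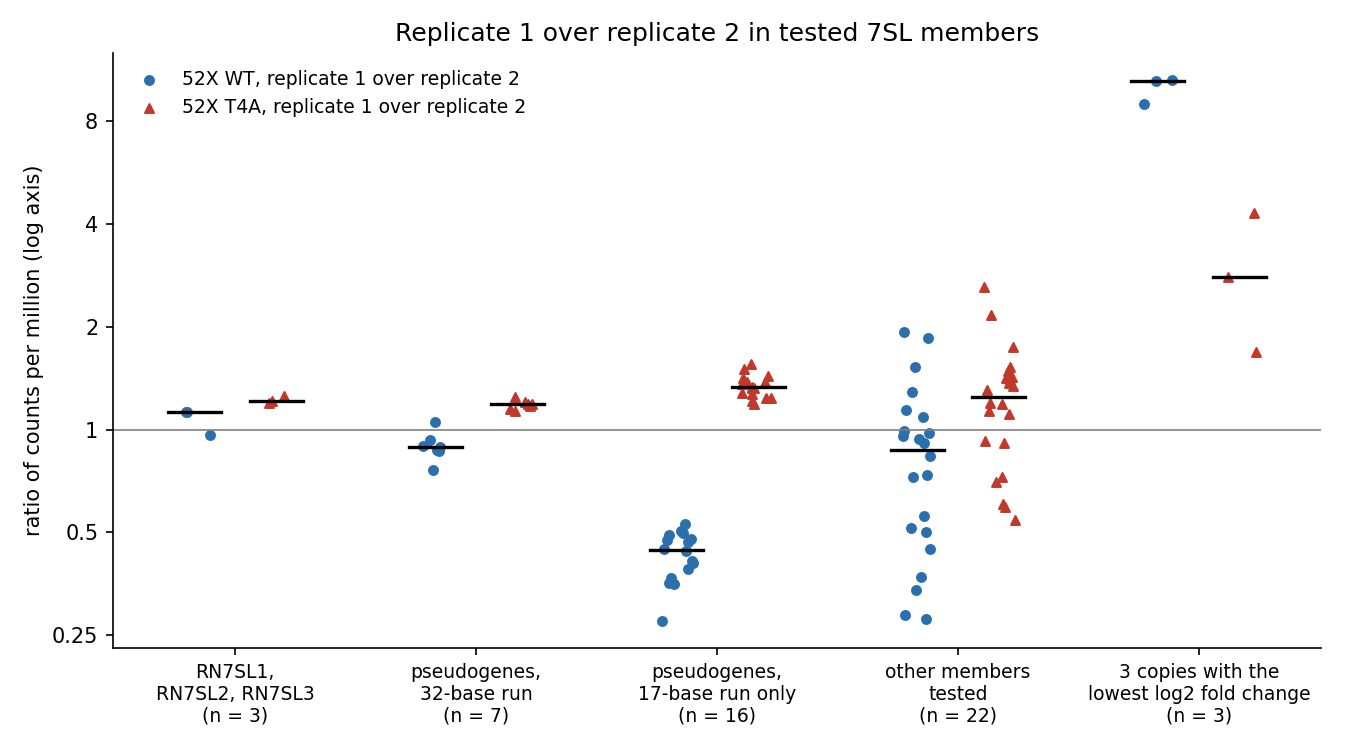
Ratio of replicate 1 to replicate 2 in CPM (log axis) for the 51 tested 7SL members, in 5 sets, with blue circles for 52X WT, red triangles for 52X T4A and black bars at the medians. The 52X WT ratios of the 16 pseudogenes with the 17-base run only all lie at or below 0.529, while those of the 3 members with the lowest log2 fold changes lie at 9.03 or above.

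Over all features, 1480 passed the filter on low counts and 2 of them (0.135%) were called, which required an FDR under 0.05 together with a change of more than 1.5-fold. Of the members, 51 passed the filter, the 3 genes and 48 pseudogenes. The other 62, with totals of 10 to 43, were not tested. None of the 51 was called by edgeR or reached an unadjusted p below 0.05 there. DESeq2 called none and gave 1 with an unadjusted p below 0.05. It gave no adjusted p for some members, RN7SL499P, RN7SL36P, RN7SL364P, RN7SL665P and RN7SL118P among them, so these could not be called. In the whole table, 3.99% of features were higher and 6.28% lower at that unadjusted p by edgeR. DESeq2 gave 129 of 1480 features at that unadjusted p, in either direction. The smallest FDR of a member was 0.467.

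The median log2 fold change of the 51 members was 0.39, beside -0.05 for all features tested, and 36 of 51 lay above 0, beside 46.1% of all features. Over all 113 members, with no filter on low counts, the median was 0.10 and 65 lay above 0, beside 50.8% of all features so tested, and at a minimum mean of 10 counts the median was 0.26. Among the 51 tested members the groups did not overlap in 9, all higher in 52X T4A (18.9% of all features tested were higher without overlap and 21.2% lower). The 9 were RN7SL634P, RN7SL752P, RN7SL665P, RN7SL151P, RN7SL230P, RN7SL8P, RN7SL507P, RN7SL825P and RN7SL564P, named after their values were seen. Only RN7SL634P among them holds the 17-base run. Among the 62 members not tested, whose counts were low, 7 were higher and 15 lower without overlap. No share over other untested features stands beside these counts, so they are a description only. All 16 pseudogenes with the 17-base run only lay above 0, from 0.29 to 0.87 with a median of 0.55 and a smallest FDR of 0.499. These 16 were grouped after their values had been seen, and they share sequence.

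The member median changed with single libraries left out. Without 52X WT replicate 1 the median of the same 51 members was -0.03, with 21 above 0, and without 52X T4A replicate 1 it was 0.09, with 27 above 0. Without 52X T4A replicate 2 it was 0.53, and without 52X WT replicate 2 it was 0.78. With 52X WT replicate 1 left out, the median of the 16 pseudogenes was -0.03, with 6 above 0. None of the 70 members then tested was called by edgeR without this library, beside 0.306% of all features called higher and 1.83% lower. That fit left replicate 2 as the lone 52X WT library. Without 52X WT replicate 2, which leaves replicate 1 as the lone 52X WT library and assumes that it varies like the 52X T4A libraries, 19 of 60 tested members were called higher and 4 lower, beside 4.01% and 9.87% of all features. Of the 19, 15 were pseudogenes with the 17-base run only, all of that set but RN7SL97P, and none held the 32-base run. The log2 fold changes of all members called higher in that fit were between 1.03 and 2.23.

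**Figure D5:**
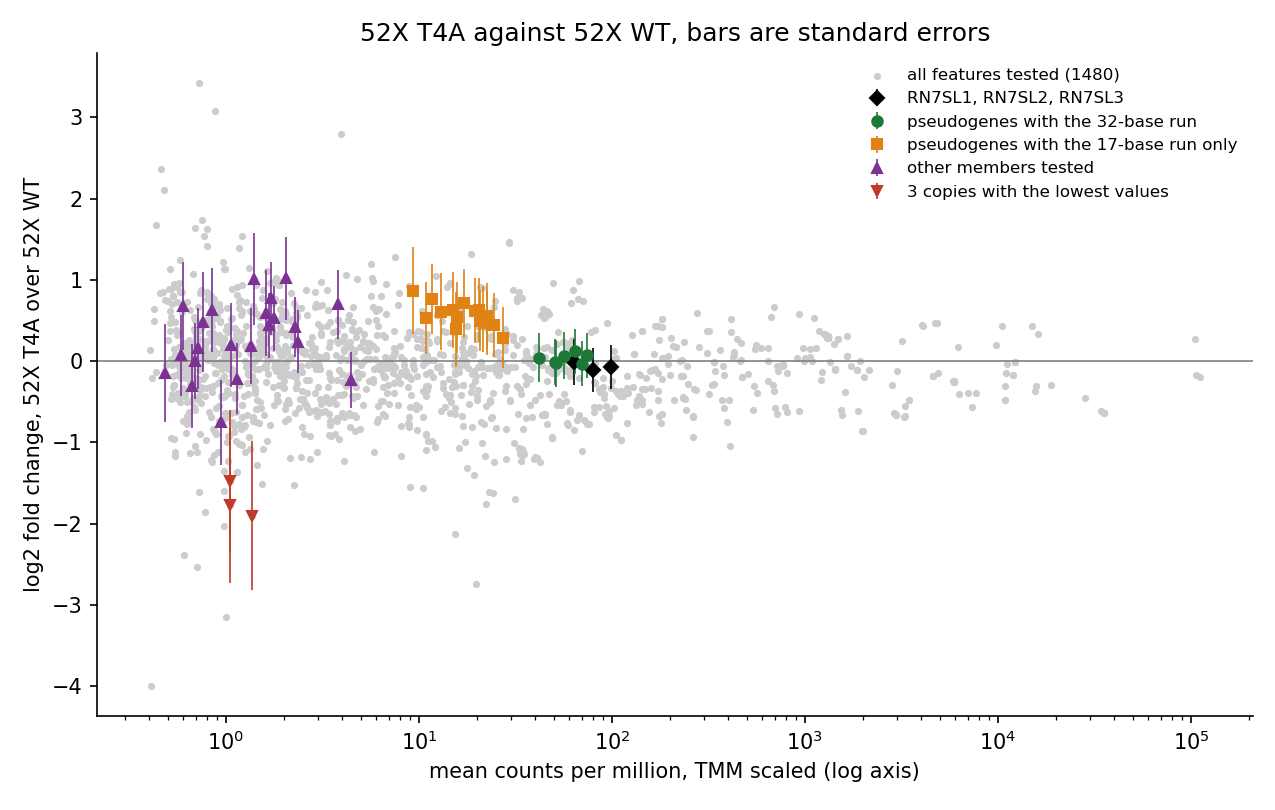
Log2 fold change of 52X T4A over 52X WT against mean TMM-scaled CPM (log axis) for all 1480 tested features (grey) and the 51 tested 7SL members (coloured by set), with bars for the standard error. The 3 genes and the 7 pseudogenes with the 32-base run lie within 0.12 of 0, the 16 pseudogenes with the 17-base run only lie at 0.29 to 0.87, and 3 copies lie at -1.48 or below.

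The highest values among tested members were those of RN7SL665P (1.02 ± 0.51, FDR = 0.467), RN7SL118P (1.01 ± 0.57, FDR = 0.493) and RN7SL116P (0.87 ± 0.54, FDR = 0.542). RN7SL665P was at 2.08 and 3.45 CPM in 52X T4A and at 0.69 and 2.02 CPM in 52X WT. RN7SL118P was at 1.33 and 2.44 CPM against 0.41 and 1.43 CPM. In each of the 3 the lowest value was that of 52X WT replicate 1. Without it the log2 fold changes of RN7SL665P, RN7SL118P and RN7SL116P were 0.41, 0.36 and 0.12, and without 52X WT replicate 2 they were 2.04, 2.23 and 2.09.

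The lowest values belonged to RN7SL499P (-1.90 ± 0.92, FDR = 0.467), RN7SL36P (-1.78 ± 0.95, FDR = 0.480) and RN7SL364P (-1.48 ± 0.87, FDR = 0.516). RN7SL499P had 14 and 10 counts in 52X T4A, 57 counts in 52X WT replicate 1 and 7 in replicate 2. RN7SL36P had 13 and 6 counts in 52X T4A, with 42 and 6 in 52X WT, and RN7SL364P had 11 and 13, with 41 and 5. In each, 52X WT replicate 1 was alone in being high, at 9.03 to 10.6 times the CPM of 52X WT replicate 2, and without it the values were 0.46, 0.38 and 0.89.

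RN7SL499P lies between genes on chr2:231645998-231646273, RN7SL36P on chr3:195146728-195147003 in an intron of XXYLT1, and RN7SL364P on chr19:46688797-46689068 in an intron of PRKD2, all on the minus strand of hg38. None of the 3 holds the 17-base run.

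The other 22 tested members, with totals of 41 to 353, also lacked the 17-base run. Their log2 fold changes ran from -0.76 to 1.02 with a median of 0.33, and 16 lay above 0. Their ratios of 52X WT replicate 1 to replicate 2 ran from 0.279 to 1.94. RN7SL521P was at 4.49 and 3.77 CPM in 52X T4A and at 4.39 and 5.26 CPM in 52X WT (-0.23 ± 0.34, FDR = 0.831), and RN7SL752P was at 4.55 and 4.91 CPM against 1.78 and 3.98 CPM (0.70 ± 0.42, FDR = 0.530). The former overlapped between groups and the latter did not.

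By position, 59 of the 113 members lay in introns of other genes, 39 on the same strand as the host and 20 on the opposite strand. A further 39 lay between genes, 2 overlapped an exon and 13 had no entry in GENCODE v44lift37. The members were spread over 22 chromosomes, with 59 on the plus strand and 54 on the minus strand. Among the named pseudogenes, RN7SL674P and RN7SL364P lay on the strand of their hosts GREB1 and PRKD2, while RN7SL5P and RN7SL4P lay opposite to PTPRD and ANKRD28.

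Other transcripts of RNA polymerase III gave a point of comparison. Of a list of 18 symbols, 15 were found, at 16 features, because RN7SK, which holds the elongation factor P-TEFb in an inactive complex, was listed at 2 features with the same counts. Of the 14 features tested none was called, the median log2 fold change was -0.13, 2 lay above 0 and 12 below, and the smallest FDR was 0.427. RNY4, a Y RNA bound by the Ro protein, had 2613072 counts in all and a log2 fold change of -0.64 ± 0.31 (FDR = 0.467), or -0.29 without 52X WT replicate 1. Unadjusted p-values below 0.05 were found for 2 features. They were RNY1, another Y RNA, at -0.75 ± 0.32 (FDR = 0.460) and -0.41 without 52X WT replicate 1, and VTRNA1-2, an RNA of the vault particle, at -0.57 ± 0.23 (FDR = 0.427) and -0.79 without that library. RN7SK was at -0.05 ± 0.32 (FDR = 0.981).

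In log2 CPM over the 4 libraries, the 5 features outside the 7SL family most like RN7SL1 were MIR1255A (Pearson's r = 0.999), SNORD30 (0.998), SNORD92 (0.995), SNORD15B (0.993) and ENSG00000278294.1 (0.991). These are values over 4 libraries only, picked as the highest of all features tested.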

How the data were processed

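The authors deposited 1 table of raw read counts per library, with no normalization, for 4 small RNA libraries of single-end 50 bp reads. Per the labels, the submitters' processing notes name cutadapt 4.6, Bowtie2 2.3.5.1, featureCounts 1.5.0 and hg38. Their settings, the annotation release and the treatment of strand and of reads with several matches are not given in the sources used here. No column of any table was left unmapped.

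Symbols came from GENCODE v44lift37 by Ensembl identifier (5579 features) or from a RefSeq GRCh38.p14 gene with at least 95% reciprocal overlap (956 features, RN7SL1, RN7SL2 and RN7SL3 among them), and 527 features had none. The main test on the counts was edgeR 4.0.16 (quasi-likelihood, R 4.3.3) with TMM factors, filterByExpr at a minimum count of 10 and Benjamini-Hochberg adjustment (FDR), and CPM used TMM-scaled library sizes. Calls required an FDR under 0.05 together with a change of more than 1.5-fold. Standard errors were the log2 fold change over the square root of F. Sequences were aligned with Biopython 1.88, and some 7SL sequences are not reported here. The test was checked on simulated counts.

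The members, lists and tests were chosen with earlier results of these data known. Named were the 3 genes, the 10 pseudogenes with the largest totals, called members, the 3 highest and 3 lowest log2 fold changes, copies at the minimum total, a list of RNA polymerase III transcripts and the 5 features most like RN7SL1. Others were named after their values were seen, as were the runs shared by copies with high totals. Alternatives covered scaling, filters, DESeq2 1.42.0, a robust fit, thresholds, the replicate number as a block, the 5 most abundant features and each library left out.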

Additional observations from a re-analysis of the deposited data

How the results depend on the processing

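With no filter on low counts 1 member was called, RN7SL499P, and without 52X WT replicate 2 there were 23. The fit with no filter tested 113 members and 3803 features, and the fit without 52X WT replicate 2 tested 60 and 1570. All other alternatives called no member, though DESeq2 gave no adjusted p for some members, which it therefore could not call. The count over all features moved from 2 to 9 with library size alone, 29 with no filter, 29 with DESeq2, 18 with the replicate block, 0 at an FDR below 0.01, and 4 to 218 with single libraries left out. Labels share replicate numbers between groups, but same-numbered libraries did not deviate together (correlation 0.0946). The replicate block left the members called at 0 and the member median at 0.41.

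RN7SL1 turned to 0.093 with upper quartile factors and 0.10 with library size alone, and ran from -0.23 to 0.078 with single libraries left out. RN7SL2 turned to 0.053 and 0.060 and ran from -0.26 to 0.026. RN7SL3 turned to 0.14 and 0.15, to 0.011 with RLE factors, 0.0051 with no filter and 0.011 with DESeq2, and ran from -0.20 to 0.16. The median of all members each fit tested was 0.10 with no filter and 0.26 at a minimum mean of 10 counts. It ran from -0.05 to 0.46 with single libraries left out, below 0 without 52X WT replicate 1 and without 52X T4A replicate 1 (-0.02), fits that tested 70 and 69 members. Upper quartile factors moved the median of all features to 0.125 and library size alone to 0.14, and 60.5% and 61.6% of features then lay above 0, beside 44 of 51 members.

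With the 5 most abundant features left out of the total, shares of the genes were 0.04168% in 52X T4A and 0.03844% in 52X WT, and those of the pseudogenes 0.1418% and 0.1076%. With members named by GENCODE identifier only, an alternative added after the data were seen, the pseudogene share in 52X T4A was 0.07681%.

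Among named pseudogenes, upper quartile factors and library size alone turned RN7SL674P to 0.13 and 0.14, RN7SL128P to 0.12 and 0.13, and RN7SL296P to 0.14 and 0.16, and RN7SL296P was also at 0.014 with RLE factors, 0.010 with no filter and 0.014 with DESeq2. With single libraries left out, RN7SL5P ran from -0.11 to 0.20, RN7SL674P from -0.18 to 0.10, RN7SL4P from -0.031 to 0.26, RN7SL767P from -0.13 to 0.23, RN7SL128P from -0.23 to 0.12, RN7SL296P from -0.19 to 0.095, RN7SL546P from -0.24 to 0.26, RN7SL97P from -0.22 to 0.87, RN7SL43P from -0.10 to 1.08, RN7SL143P from -0.015 to 1.27, RN7SL499P from -2.84 to 0.46, RN7SL36P from -3.01 to 0.38 and RN7SL364P from -2.41 to 0.89. The cause was not tested.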
